A study of Mus musculus with 6 samples.

Results

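The genes described here are the reticulons Rtn1, Rtn2, Rtn3 and Rtn4, and the genes of the receptor complex that binds Rtn4, which is also called Nogo: the Nogo receptor Rtn4r, its relatives Rtn4rl1 and Rtn4rl2, the co-receptor Lingo1 and the further ligand Omg. They are the rows of the count tables whose Ensembl identifiers carry these symbols in GENCODE M21, and make up 9 of 60354 features. The family was chosen by the diet difference of Rtn4 in these same mice. The differences between the diets among the 9 genes are therefore given as a description. No p-value is printed for them, and nothing is read from the number of them that passed a threshold.

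Messenger RNA was sequenced from the whole brains of male C57BL/6NCrSlc mice, whose genotype label names the strain alone and which were 16 weeks old when feeding began. The 3 PLDP mice (mice 17, 22 and 26) had eaten, for 16 weeks, food of the AIN-93M type in which PLDP, a product of porcine liver broken down by protease, made up 20%. The 3 control mice (mice 2, 5 and 10) had eaten a calorie-adjusted food of the same type without PLDP for the same time. All 6 mice then went through a series of behavioral tests, during which PLDP was no longer fed, before RNA was taken. Each library came from 1 mouse, so the spread between libraries holds both the differences between animals and the technical error. In whole brain, fewer cells of a type and less RNA per cell cannot be told apart.

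Reticulons are membrane proteins that bend the endoplasmic reticulum into tubules. Rtn4 is made in several forms, of which the longest, Nogo-A, also sits on the surface of oligodendrocytes and neurons and stops growing axons. The Nogo receptor Rtn4r is a protein of leucine-rich repeats held to the neuronal membrane by a lipid anchor. It binds Nogo, the myelin protein Mag and Omg, and, having no part inside the cell, signals through partners such as Lingo1 and the neurotrophin receptor Ngfr to the small GTPase Rhoa and to the actin cytoskeleton. In the adult brain this system is known for limiting the sprouting of axons and the remodelling of synapses.

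Library totals ran from 18797061 to 23938729 counts per mouse, and mitochondrial genes took between 2.53% and 2.8% of them. Expression is given as CPM, the reads of a gene relative to the reads of its library, after TMM scaling, an adjustment for the makeup of each library. Differences between the diets are log2 fold changes of PLDP against control with their standard errors (SE) from edgeR's quasi-likelihood fit of 18580 features, whose median log2 fold change was -0.0006185. At an unadjusted p under 0.05, 913 of these features (4.91%) were called higher in PLDP mice and 685 (3.69%) lower, and 6 features (0.0323%) had a Benjamini-Hochberg adjusted p under 0.05. PLDP mouse 17 stood apart from the other PLDP mice in this respect. Without it, 1293 features were called higher and 1072 lower, and 182 passed after adjustment.

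The reticulons share their C-terminal end, which holds the membrane hairpins and which in Rtn4 includes a stretch bound by the Nogo receptor. Over the last 200 residues encoded by the longest transcripts, Rtn4 shared 65.0% of its residues with Rtn1, 58.8% with Rtn3 and 50% with Rtn2. The stretch of 90 coding bases in which the other reticulons came closest to Rtn4 follows, 5′ to 3′, to let the likeness of the family be seen at the level of the reads. It was read from the GENCODE M21 transcripts, and capitals mark bases that differ from Rtn4.
Rtn4, codons 1083 to 1112: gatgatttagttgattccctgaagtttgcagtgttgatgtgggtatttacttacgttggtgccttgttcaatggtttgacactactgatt
Rtn1, codons 701 to 730: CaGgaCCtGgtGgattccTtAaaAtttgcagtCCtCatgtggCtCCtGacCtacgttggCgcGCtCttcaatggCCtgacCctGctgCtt
Rtn2, codons 380 to 409: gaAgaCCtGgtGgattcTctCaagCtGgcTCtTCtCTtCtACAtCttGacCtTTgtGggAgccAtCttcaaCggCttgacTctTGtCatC
Rtn3, codons 884 to 913: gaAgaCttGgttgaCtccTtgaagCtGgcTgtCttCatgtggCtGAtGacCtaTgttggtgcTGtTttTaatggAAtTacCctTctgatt
Rtn3 differed from Rtn4 at 25 of these bases, Rtn1 at 26 and Rtn2 at 35, scattered so that no long run was identical. The longest exact stretch shared by the transcripts of any pair of reticulons was 16 bases, and between the Nogo receptors it was 15 bases, in libraries sequenced with reads of 150 bases. Among all pairs of the 9 genes the longest was 33 bases, between Rtn2 and Lingo1.

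Rtn4 lies on chromosome 11 (GRCm38, chr11:29692947-29744331, plus strand) and has 10 annotated transcripts, of which 6 are coding, for proteins of 1162, 1046, 375, 356 and 199 residues. The counts were made per gene, so the values below are sums over all of these forms. In the control mice Rtn4 was at 594 CPM in mouse 2, 608 in mouse 5 and 584 in mouse 10. In the PLDP mice it was at 537 CPM in mouse 17, 570 in mouse 22 and 558 in mouse 26. All PLDP mice thus lay below all control mice, with a mean of 555 ± 16.6 CPM against 595 ± 12.2 (SD, n = 3 each). The level was 6.71% lower in the PLDP mice, a log2 fold change of -0.10 (SE 0.037), which was 2.70 times the SD between mice of the same diet. Each Rtn4 value rested on 10432 to 13603 reads, and counting error alone would give a coefficient of variation of 0.904%. The gene shares 1284 exonic bases with Eml6 on the opposite strand, which had a mean of 801 counts, and whether the counting used strand is not given in the sources used here.

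The other reticulons did not separate the diets. Rtn3, the form known to bind the beta-secretase Bace1, was at 885, 871 and 862 CPM in control mice 2, 5 and 10, and at 870, 860 and 870 CPM in PLDP mice 17, 22 and 26, a log2 fold change of -0.0096 (SE 0.033). Rtn1, a reticulon of neurons, was at 789, 771 and 755 CPM in the same control mice and at 787, 802 and 809 CPM in the PLDP mice. Its PLDP mean was 3.57% higher, a log2 fold change of 0.05 (SE 0.034), and mouse 17 lay below control mouse 2. Rtn2, mutated in a form of hereditary spastic paraplegia, was the most uneven. It was at 92.2, 94.7 and 90.5 CPM in the control mice, at 97.2 CPM in PLDP mouse 17 and at 83.9 and 84.7 CPM in PLDP mice 22 and 26, so that the highest and the lowest value both came from PLDP mice. Its log2 fold change was -0.061 (SE 0.055) with all mice and -0.13 (SE 0.044) without mouse 17, when it was called lower.

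Reads of Rtn4 were also set against those of Rtn3 in the same mouse, a ratio that needs no scaling between libraries. There were 671, 698 and 677 Rtn4 reads per 1000 Rtn3 reads in the control mice and 617, 663 and 641 in the PLDP mice, with no overlap. The ratio reuses the Rtn4 counts by which the family was chosen, over a gene that differed little between the diets. It is therefore no separate evidence of a diet difference. As a share of the summed level of the 4 reticulons per exon length, Rtn4 took 19.6% ± 0.311 in control mice and 18.4% ± 0.489 in PLDP mice (SD, n = 3 each). The corresponding share of Rtn1 was 35.7% ± 0.285 and 37.2% ± 0.334, while that of Rtn3 was 40.0% ± 0.227 and 40.0% ± 0.375. Rtn2 took 4.65% ± 0.084 and 4.48% ± 0.400, and over all 6 mice 7.4% in place of 4.56% where the longest coding sequence was used as the length.

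Omg, the oligodendrocyte myelin glycoprotein, is a ligand of the Nogo receptor made by oligodendrocytes and neurons. It was at 92.5, 95.0 and 83.7 CPM in control mice 2, 5 and 10, and at 84.4, 85.4 and 78.0 CPM in PLDP mice 17, 22 and 26. The PLDP mean was 8.60% lower (82.6 ± 4.01 against 90.4 ± 5.94 CPM), a log2 fold change of -0.13 (SE 0.055), but control mouse 10 lay below PLDP mice 17 and 22, so the diets overlapped. Omg lies inside an intron of Nf1 on the opposite strand (chr11:79500982-79504084) and shares no exonic base with it.

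**Figure D1:**
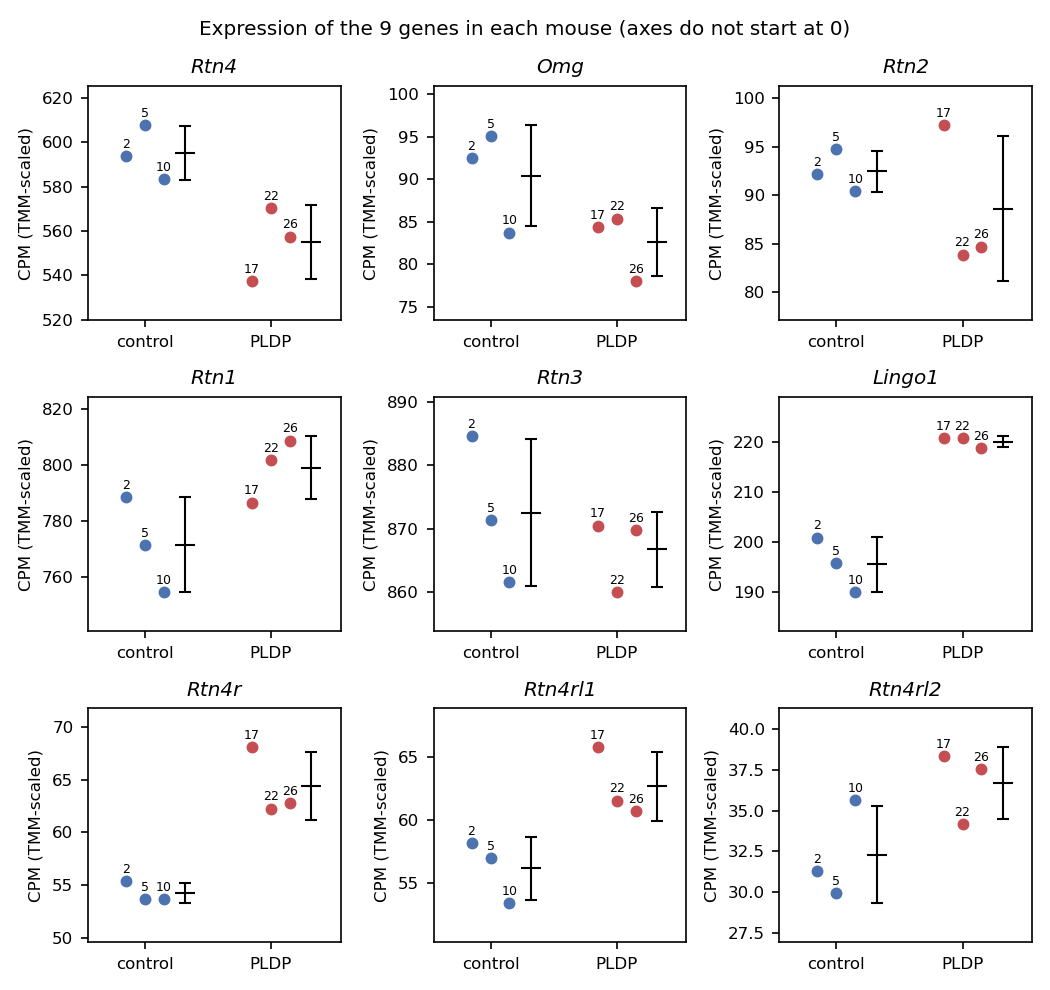
Expression of the 9 genes in each mouse, in TMM-scaled CPM on axes that do not start at 0, with control mice in blue, PLDP mice in red and the mouse number over each point. Bars give the mean ± SD of 3 mice. The diets do not overlap for Rtn4, which is lower in PLDP mice, nor for Rtn4r, Rtn4rl1 and Lingo1, which are higher.

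The Nogo receptor Rtn4r (chr16:18127642-18152408, plus strand, 1 annotated transcript) had the largest fold change among the 9 genes. It was at 55.4, 53.7 and 53.7 CPM in control mice 2, 5 and 10 and at 68.1, 62.3 and 62.8 CPM in PLDP mice 17, 22 and 26. The lowest PLDP mouse lay above the highest control mouse, and the means were 64.4 ± 3.23 and 54.2 ± 0.976 CPM. This is an 18.7% higher level in PLDP mice, a log2 fold change of 0.25 (SE 0.052) and 4.61 times the SD between mice of the same diet. The values rested on 1107 to 1485 reads per mouse, for which counting error alone gives a coefficient of variation of 2.82%.

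Its relatives Rtn4rl1 and Rtn4rl2 were also higher in PLDP mice on average. The receptors are encoded by separate genes with 44.8% (Rtn4rl1) and 44.0% (Rtn4rl2) of aligned residues identical to Rtn4r. Rtn4rl1, which binds chondroitin sulfate proteoglycans, was at 58.2, 57.0 and 53.4 CPM in the control mice and at 65.8, 61.5 and 60.7 CPM in the PLDP mice, a log2 fold change of 0.16 (SE 0.054) with no overlap. Rtn4rl2, which binds Mag, was at 31.3, 29.9 and 35.6 CPM in the control mice and at 38.4, 34.2 and 37.5 CPM in the PLDP mice, a log2 fold change of 0.18 (SE 0.072). Here control mouse 10 lay above PLDP mouse 22, and the overlap came from these 2 mice. Of the summed level of the 3 receptors per exon length, Rtn4r took 42.8% ± 1.03 in control mice and 44.1% ± 0.534 in PLDP mice, Rtn4rl2 32.8% ± 2.44 and 32.3% ± 1.03, and Rtn4rl1 24.4% ± 1.42 and 23.6% ± 0.528. These shares depend on the length used: over all 6 mice Rtn4rl1 took 24% by merged exons and 39.3% by the longest coding sequence, then the largest share, with Rtn4r at 36.9% and Rtn4rl2 at 23.8%.

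Lingo1 (chr9:56618475-56796468, minus strand) encodes the leucine-rich repeat protein that joins the Nogo receptor to carry its signal and that also holds back the maturation of oligodendrocytes. It was at 201, 196 and 190 CPM in control mice 2, 5 and 10, and at 221, 221 and 219 CPM in PLDP mice 17, 22 and 26. The PLDP mice were 12.6% higher, a log2 fold change of 0.17 (SE 0.039), which was 5.89 times the SD within a diet. The 3 PLDP values spread by 0.518% of their mean, less than the 1.5% that counting error alone would give.

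Under the same threshold of an unadjusted p under 0.05, 4 of the 9 genes (Rtn4r, Rtn4rl1, Rtn4rl2 and Lingo1) were called higher, against 4.91% of all features, and 2 (Rtn4 and Omg) lower, against 3.69%. On leaving out a mouse, 3 to 4 were called higher and 0 to 3 lower, as given below beside shares of all features. None of the 9 had an adjusted p under 0.05 in the reported fit of all 6 mice. Rtn4r and Lingo1 did with no filter on low counts, with DESeq2 and without PLDP mouse 17. More features passed the adjustment in those fits: 180 of 36099, 24 of 18580 and 182 of 18848, against 6 of 18580 in the reported fit. Without overlap, 3 genes were higher in PLDP mice, which held for 7.29% of all features, and 1 was lower, which held for 6.9%. The genes were picked from this contrast, so nothing is read from these counts. The median log2 fold change of the 9 genes was 0.05, and the median size of the log2 fold change over all called features was 0.20, below the 0.25 of Rtn4r and above the 0.10 by which Rtn4 was lower.

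**Figure D2:**
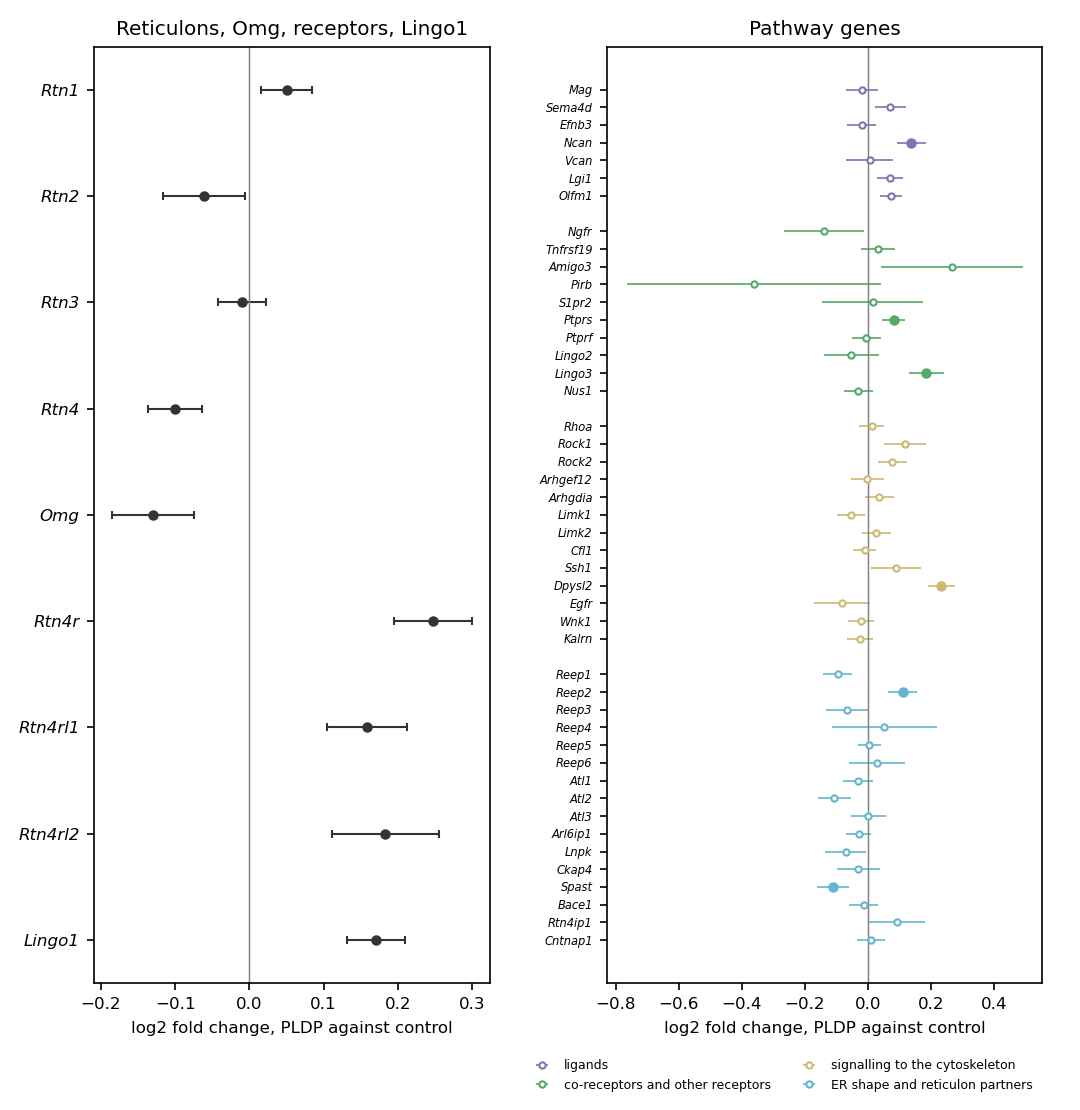
Log2 fold change of PLDP against control with its SE for the 9 genes (left, shown without a test) and for 46 genes of the pathway (right, coloured by list, filled where the unadjusted p was under 0.05). Rtn4 and Omg lie below 0 at -0.10 and -0.13, and the receptors and Lingo1 lie between 0.16 and 0.25.

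The balance of receptor to ligand was followed within each mouse, as reads of the receptor-side gene per 1000 reads of Rtn4. These ratios reuse the counts described above, so they add no separate evidence of a diet difference. For Rtn4r there were 93.3, 88.3 and 92.0 reads in control mice 2, 5 and 10 and 127, 109 and 113 in PLDP mice 17, 22 and 26. This ratio had a mean of 116 ± 9.31 in PLDP mice against 91.2 ± 2.58 in control mice, a log2 difference of 0.35. For Lingo1 there were 338, 322 and 326 reads per 1000 Rtn4 reads in the control mice and 411, 387 and 392 in the PLDP mice, a log2 difference of 0.27. Rtn4rl1 had 94.4 ± 3.28 and 113 ± 8.11 reads in control and PLDP mice, with no overlap, and Rtn4rl2 had 54.3 ± 6.09 and 66.2 ± 5.81, with overlap. Mouse 17, which had the least Rtn4 and the most Rtn4r, gave the highest value in all 4 ratios. Against Omg, the other ligand, Rtn4r stood at 602 ± 38.4 reads per 1000 in control mice and 781 ± 44.4 in PLDP mice, and Lingo1 at 2167 ± 105 and 2670 ± 119, both without overlap.

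**Figure D3:**
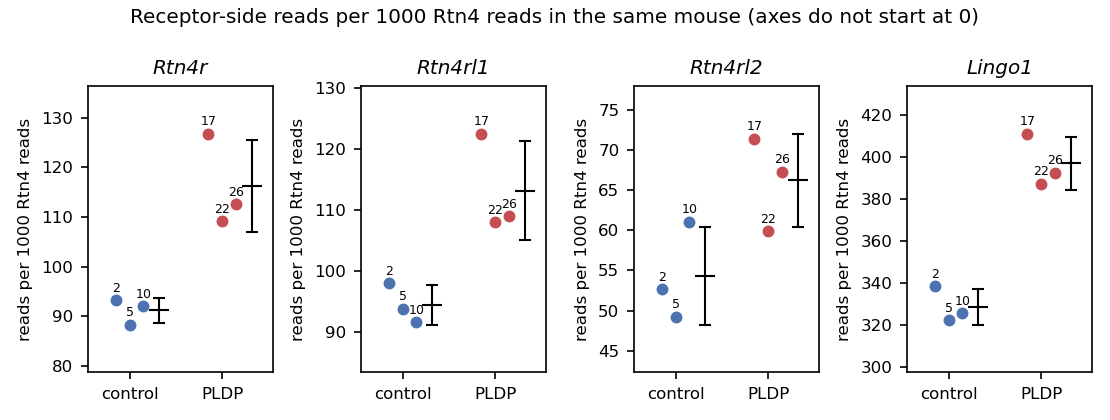
Reads of Rtn4r, Rtn4rl1, Rtn4rl2 and Lingo1 per 1000 Rtn4 reads in the same mouse, on axes that do not start at 0, for control (blue) and PLDP (red) mice with mean ± SD of 3. PLDP mice lie above control mice for all but Rtn4rl2, and mouse 17 is highest in each panel.

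The start regions of genes that differed in opposite directions were read from the RefSeq promoter table (GRCm38.p6), which holds 12 windows for 7 of the 9 genes, each from 250 bases before to 50 bases after a transcript start. Both strands were searched for the GC box bound by Sp factors (GGGCGG). They were also searched for the box that the factor NF-Y binds (CCAAT) and for the box bound by the TATA-binding protein (TATAAA). The last motif was the cAMP response element, in full (TGACGTCA) and in its short form, which the full one contains (TGACG). Shown 5′ to 3′ along the gene's own strand are the first start of Rtn4, the start of Rtn4r and the start of Lingo1 nearest to the annotated 5′ end of the gene, with matches on either strand to the GC box, the NF-Y box and the short cAMP response element in capitals.
Rtn4, chr11:29692648-29692947, plus strand: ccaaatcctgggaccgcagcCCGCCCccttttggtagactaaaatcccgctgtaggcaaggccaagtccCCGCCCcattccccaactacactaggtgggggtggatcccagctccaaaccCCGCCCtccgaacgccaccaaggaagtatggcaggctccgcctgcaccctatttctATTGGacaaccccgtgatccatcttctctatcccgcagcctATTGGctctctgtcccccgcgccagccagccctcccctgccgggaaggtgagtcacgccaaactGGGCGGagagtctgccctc
Rtn4r, chr16:18127392-18127691, plus strand: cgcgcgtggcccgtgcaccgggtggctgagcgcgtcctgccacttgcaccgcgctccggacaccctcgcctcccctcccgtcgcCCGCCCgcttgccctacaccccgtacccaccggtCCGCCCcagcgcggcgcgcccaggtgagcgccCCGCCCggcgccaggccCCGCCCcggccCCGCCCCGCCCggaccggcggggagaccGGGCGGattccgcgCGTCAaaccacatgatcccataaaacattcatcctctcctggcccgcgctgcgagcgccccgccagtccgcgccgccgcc
Lingo1, chr9:56796261-56796560, minus strand: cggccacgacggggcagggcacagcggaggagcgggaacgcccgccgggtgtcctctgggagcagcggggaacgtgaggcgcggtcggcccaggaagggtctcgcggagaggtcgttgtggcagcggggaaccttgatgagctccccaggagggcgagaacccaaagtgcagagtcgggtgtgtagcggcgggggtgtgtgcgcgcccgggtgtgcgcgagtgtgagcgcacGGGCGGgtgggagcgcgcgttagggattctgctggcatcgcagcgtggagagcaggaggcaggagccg
The Rtn4r window held 7 GC boxes and 1 short cAMP response element, and 78.0% of its bases were G or C. The Rtn4 window held 4 GC boxes and 2 NF-Y boxes at 62.3% G or C, and the Lingo1 window 1 GC box at 71.3%. Over all 32851 windows of the table the median G and C content was 52.7%, and a GC box was found in 35.7%, an NF-Y box in 37.4%, the short cAMP response element in 20.8%, the full one in 1.79% and a TATA box in 13.6%. Neither a TATA box nor a full cAMP response element was found in any of the 12 windows. These matches are letters in a window of fixed length, not sites shown to be used.

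The levels of the 9 genes could be compared with one another after dividing CPM by the length of the merged exons (CPM per kb), a measure that the choice of the genes did not use. Over all 6 mice Rtn3 was highest with 173 ± 1.75 CPM per kb, followed by Rtn1 with 158 ± 3.99, Rtn4 with 82.3 ± 3.64 and Lingo1 with 44.1 ± 2.95 (SD, n = 6). Below them came Omg with 38.8 ± 2.8, Rtn4r with 30.6 ± 3.07, Rtn4rl2 with 22.9 ± 2.23, Rtn2 with 19.7 ± 1.17 and Rtn4rl1 with 16.9 ± 1.21. The ligand Rtn4 was thus at a higher level per length than each of its receptors in every mouse.

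Neighbours in this order were compared within each mouse by an exact two-sided sign-flip permutation test with adjustment over the 8 pairs. The order was taken from the means of these same 6 mice, so the test does not judge an order set beforehand. Its outcome also depends on the length used, as given below. In 6 pairs the order held in all 6 mice (exact p = 0.03125, the smallest that 6 mice can give, adjusted p = 0.0417), with ratios from 1.1-fold for Rtn3 over Rtn1 to 1.92-fold for Rtn1 over Rtn4. These ratios pool the diets, and in some pairs they differed between them. Omg over Rtn4r was at a log2 ratio of 0.53 ± 0.092 in control and 0.16 ± 0.084 in PLDP mice, Rtn2 over Rtn4rl1 at 0.34 ± 0.050 and 0.12 ± 0.060, and Rtn4 over Lingo1 at 1.04 ± 0.037 and 0.77 ± 0.045 (SD, n = 3 each). Lingo1 over Omg, at a log2 ratio of 0.18 ± 0.175, held in 5 of 6 mice (exact p = 0.09375, adjusted p = 0.09375), and so did Rtn4rl2 over Rtn2, at 0.21 ± 0.180. These pairs did not pass the test. Lingo1 over Omg was at a log2 ratio of 0.033 ± 0.070 in control mice, above 0 in 2 of 3, and at 0.33 ± 0.064 in PLDP mice, above 0 in 3 of 3. Rtn4rl2 over Rtn2 was at 0.085 ± 0.163 in control mice and 0.34 ± 0.086 in PLDP mice, above 0 in 2 of 3 and 3 of 3. The order of close neighbours also depended on the length used. With the longest transcript or the longest coding sequence in place of merged exons, Rtn1 stood above Rtn3, at a log2 ratio of Rtn3 over Rtn1 of -0.32 and -0.16. With the coding sequence, Rtn2 stood above Rtn4rl2, at -1.25, and the lower end of the order changed. It then ran from Omg (65.1 CPM per kb of coding sequence) over Rtn2 (64.1), Rtn4rl1 (44.5) and Rtn4r (41.8) to Rtn4rl2 (27.0), so that Rtn4rl1 was no longer lowest and stood above Rtn4r.

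**Figure D4:**
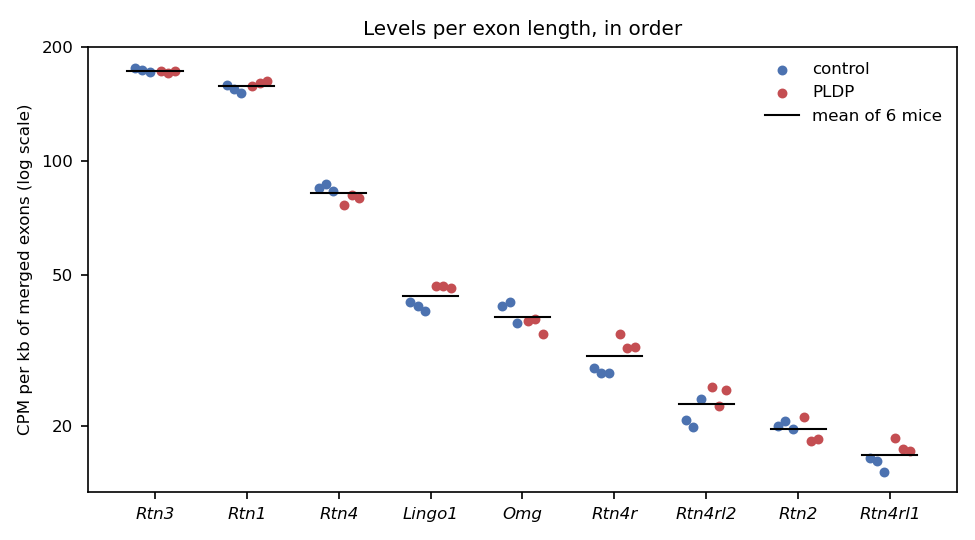
Levels of the 9 genes in CPM per kb of merged exons on a log scale, in order of the mean of 6 mice (line), with control mice in blue and PLDP mice in red. Levels run from 173 for Rtn3 to 16.9 for Rtn4rl1, and the diets sit apart within Rtn4, Lingo1, Rtn4r and Rtn4rl1.

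The genes whose pattern over the 6 mice was most like that of Rtn4 were found by standardising log2 CPM and taking the root mean square difference, where 0 is the same pattern. Among 18579 other features the nearest to Rtn4 with a gene symbol of no predicted model (ranks 1, 2, 3, 6 and 7) were St8sia4 (0.086), which makes polysialic acid, the cadherin Fat4 (0.107), Bzw1 (0.143), the protein kinase A subunit Prkacb (0.158) and Itfg1 (0.159). For Rtn4r they were (ranks 2, 4, 5, 6 and 7) Ubxn11 (0.073), Pgbd5 (0.114), the endothelial adhesion protein Pecam1 (0.116), Tldc1 (0.127) and Zbtb9 (0.156), of which Zbtb9 was at under 1 CPM in both diets (mean 0.442 in control and 0.624 in PLDP mice). Within the family, Lingo1 (0.348, rank 85) and Rtn4rl1 (0.359, rank 96) were nearest to Rtn4r, with Rtn4rl2 at 0.717 (rank 1172). Omg was nearest to Rtn4 (0.723, rank 1359), and Rtn4r was among the farthest of all features from Rtn4 (1.97, rank 18486). The measure rests on 6 points that carry the diet difference itself, and is given as a description.

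Outside the 9 genes, 47 genes of the same pathway were listed in 4 groups from general knowledge, with earlier results of these data known, and 46 of them could be tested for the diet difference. Their counts are thus no independent evidence. Of these, 5 rose and 1 fell at an unadjusted p under 0.05, against 4.91% and 3.69% of all features, and none had an adjusted p under 0.05 (smallest adjusted p = 0.0735). The median log2 fold change of the 46 genes was 0.0029.

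Among 7 other ligands of the receptors or of their close partners, Ncan, a chondroitin sulfate proteoglycan of the brain matrix known as neurocan, rose and none fell. It was at 139, 136 and 134 CPM in control mice 2, 5 and 10 and at 142, 156 and 153 CPM in PLDP mice 17, 22 and 26, a log2 fold change of 0.14 (SE 0.045, edgeR adjusted p = 0.368). Olfm1, a secreted protein that binds the Nogo receptor and the ligand with the most reads, was at 726 ± 13.9 CPM in control and 764 ± 18.1 CPM in PLDP mice (log2 fold change 0.072, SE 0.035, edgeR adjusted p = 0.589). The myelin ligand Mag was at 224 ± 12.6 and 221 ± 13.8 CPM (log2 fold change -0.018, adjusted p = 0.956). The median over the list was 0.07.

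Of 11 co-receptors and other receptors, 10 were tested, 2 rose and none fell, with a median log2 fold change of 0.0048. Lingo3, a relative of Lingo1, was at 46.1, 41.9 and 44.3 CPM in the control mice and at 52.3, 49.1 and 49.0 CPM in the PLDP mice, a log2 fold change of 0.19 (SE 0.056, edgeR adjusted p = 0.322). Ptprs, a phosphatase receptor for chondroitin sulfate and the receptor with the most reads in this list, had means of 382 ± 10.8 and 404 ± 8.60 CPM (log2 fold change 0.081, SE 0.038, edgeR adjusted p = 0.568). Its call was lost without control mouse 2, 5 or 10 or PLDP mouse 22 or 26, at log2 fold changes from 0.057 to 0.092. The partners that carry the signal of the Nogo receptor next to Lingo1 were at low or moderate levels. Ngfr was at 6.70 ± 0.781 CPM in control and 6.08 ± 0.590 CPM in PLDP mice (adjusted p = 0.811), and Tnfrsf19, known as TROY, at 44.9 ± 0.928 and 45.9 ± 1.65 CPM (adjusted p = 0.919). Lingo2 was at 13.5 ± 0.098 and 13.0 ± 1.01 CPM, and Lingo4 was the untested gene, with 0 counts in every mouse, which allows a level of up to 0.125 to 0.160 CPM depending on the library.

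In the list of signalling to the cytoskeleton, 1 of 13 genes rose and none fell, with a median of 0.012. The gene that rose was Dpysl2, also called CRMP-2, a tubulin-binding protein of growing axons. It was at 159, 162 and 166 CPM in control mice 2, 5 and 10 and at 190, 184 and 199 CPM in PLDP mice 17, 22 and 26, a log2 fold change of 0.23 (SE 0.042, edgeR adjusted p = 0.0735). Its call held without each mouse in turn. The steps between receptor and actin did not pass the test. Rhoa was at 147 ± 2.85 and 149 ± 0.609 CPM, and Cfl1, the actin-severing protein cofilin and the gene with the most reads here, at 619 ± 18.0 and 615 ± 16.6 CPM (log2 fold change -0.010, SE 0.037, adjusted p = 0.966). The kinases Rock1 and Rock2, which Rhoa activates, had log2 fold changes of 0.12 (SE 0.067, adjusted p = 0.652) and 0.077 (SE 0.046, adjusted p = 0.675), with overlap between the diets.

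The fourth list held 16 genes that shape the endoplasmic reticulum or bind reticulons, of which 1 rose and 1 fell, with a median of -0.021. Reep2, a tubule-forming protein of the same kind of fold as the reticulons, rose from 135 ± 4.09 to 145 ± 6.92 CPM (log2 fold change 0.11, SE 0.046, edgeR adjusted p = 0.506), and its call was lost without control mouse 10 (0.085) or PLDP mouse 17 (0.071). Spast, the microtubule-severing protein spastin, fell from 58.5 ± 0.603 to 54.2 ± 2.49 CPM (log2 fold change -0.11, SE 0.052, edgeR adjusted p = 0.572). Without control mouse 2, 5 or 10 or PLDP mouse 17 the call of Spast was lost, at log2 fold changes from -0.073 to -0.12. Reep5, the most abundant gene of the list, was at 363 ± 8.84 and 365 ± 3.74 CPM (adjusted p = 0.985), and Bace1, which reticulons bind, at 93.4 ± 1.74 and 92.5 ± 3.64 CPM (adjusted p = 0.963).

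Markers of the cells that make these proteins, and of the regions in a whole brain, were read from the same libraries. All 10 oligodendrocyte markers had a lower mean in PLDP mice and 4 of them, with Mbp, Mal and Ermn among these, fell at an unadjusted p under 0.05, with a median log2 fold change of -0.089. The other 6 did not pass, among them Mobp (-0.014), Mag (-0.018), Cnp (-0.038) and Mog (-0.039). The summed level of all 10 was 5381 to 5784 CPM in control mice and 5010 to 5632 CPM in PLDP mice, so the diets overlapped, with PLDP mouse 17 at the upper end of its group. Against Mbp, the highest of them, there were 174, 171 and 176 Rtn4 reads per 1000 in the control mice and 156, 189 and 184 in the PLDP mice, which overlapped, and Omg had 26.3 ± 1.0 and 26.2 ± 1.92 reads per 1000. The result depended on the marker used. Against Mobp, there were 544 ± 8.72 Rtn4 reads per 1000 in control and 515 ± 50.9 in PLDP mice, and 82.6 ± 3.56 and 76.4 ± 5.89 Omg reads. Over the 10 markers, the log2 difference of the ratio ran from -0.085 to 0.15 for Rtn4, negative for 5 and positive for 5, with overlap between the diets for 8 and higher values in PLDP mice for 2. For Omg it ran from -0.11 to 0.12, negative for 7 and positive for 3, with overlap for all 10. The part of oligodendrocytes in the lower Rtn4 and Omg values was not tested.

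Of 8 neuronal markers 7 were matched, and only the neurofilament gene Nefl fell, with summed levels of 4714 to 4886 CPM in control and 4721 to 4842 CPM in PLDP mice. Against Snap25, the neuronal marker with the most reads, Rtn4r stood at 29.1 ± 0.403 reads per 1000 in control and 34.2 ± 2.61 in PLDP mice, Lingo1 at 105 ± 1.97 and 117 ± 3.28, and Rtn4 at 319 ± 4.86 and 294 ± 2.9. None of these ratios overlapped between the diets. Snap25 itself had a log2 fold change of 0.015. Of the 7 matched markers, 3 had a log2 fold change above 0 and 4 below it, down to -0.091 for Nefl. The Rtn4 ratio thus depends on the marker, and it differs less between the diets against one that fell. Ratios to neuronal markers other than Snap25 were not taken. The 5 markers of glutamatergic forebrain neurons, which express Rtn4r and Lingo1, had summed levels of 998 to 1046 CPM in control and 1048 to 1101 CPM in PLDP mice, higher in the PLDP mice without overlap, although none of the 5 passed the test. In GABAergic neurons the 3 markers summed to 835 to 863 and 757 to 856 CPM, with none called.

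All 9 hindbrain and spinal cord markers fell, with Slc6a5, Glra1, Slc5a7 and the Hox genes Hoxb3, Hoxb4, Hoxb5, Hoxa5 and Hoxc4 among them, and with a median log2 fold change of -0.81. Slc6a5, the glycine transporter of hindbrain and spinal neurons, had an adjusted p of 0.0369 in edgeR. It passed the adjustment in 8 of 13 alternatives and missed it with library size only, with DESeq2 and without control mouse 2, 5 or 10, where its adjusted p was 0.0509, 0.0621, 0.223, 0.143 and 0.0679. The summed level of this list was 156 to 169 CPM in control mice and 83.3 to 121 CPM in PLDP mice. Most of it came from Glra1 (means of 87.0 CPM in control and 61.8 CPM in PLDP mice) and Slc6a5 (45.2 and 28.7 CPM). The Hox genes had means under 5 CPM. For Hoxb4, Hoxb5 and Hoxc4 the diets overlapped, with PLDP mouse 17 inside the range of the control mice. This list was written with the fall of such genes in these libraries already known, so its count is no independent evidence. The 5 endothelial markers summed to 196 to 205 CPM in control and 221 to 225 CPM in PLDP mice, and Pecam1, Slc2a1 and Flt1 rose. The 5 choroid plexus markers summed to 735 to 793 and 577 to 732 CPM, and Ttr and Folr1 fell. Most of this sum was Ttr, with means of 708 CPM in control and 607 CPM in PLDP mice. Kl, Clic6 and Otx2 did not pass the test. The part of these regions and cells in the values of Rtn4, Rtn4r and Lingo1 was not tested.

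Among the remaining lists, 1 of 5 astrocyte markers (Aqp4) and 1 of 5 microglial markers (P2ry12) fell. No marker of oligodendrocyte precursors (0 of 4), cerebellar granule cells (0 of 5), meninges (0 of 5) or blood (0 of 5) was called by edgeR at an unadjusted p under 0.05, and all 4 of these sums overlapped between the diets. In the pituitary and liver lists 1 gene each could be tested (Pomc and Ttr). The liver list was called only through Ttr, which the choroid plexus also expresses strongly.

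**Figure D5:**
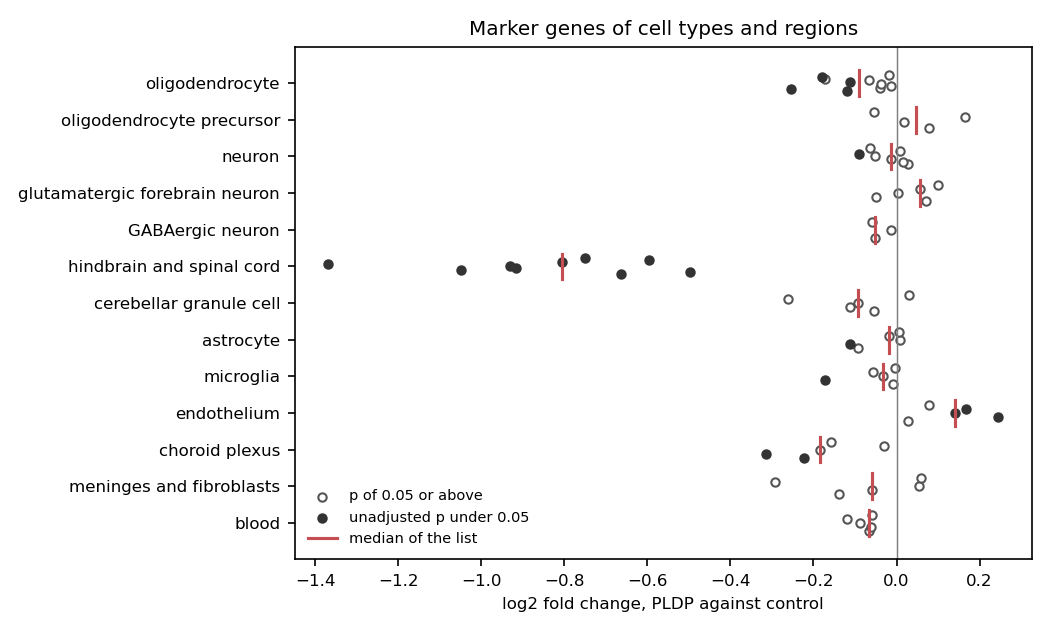
Log2 fold change of PLDP against control for each marker gene by list (points, filled where the unadjusted p was under 0.05), with the list median in red. The hindbrain and spinal cord list lies lowest, with a median of -0.81, the oligodendrocyte median is -0.089 and the endothelial median is 0.14.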

How the data were processed

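Whole-brain RNA of 6 mice was sequenced as stranded libraries of polyadenylated RNA. The authors deposited 1 table of raw read counts per mouse, without normalization, for 60354 features. The submitters' processing notes name cutadapt 2.9, HISAT2 2.2.0, featureCounts 2.6.0 and DESeq2 1.6.3 and the builds GRCm38 and GRCh38. The annotation, the strand setting of the counting and the treatment of shared reads are not given in the sources used here. Of 55034 Ensembl identifiers, 54777 were found in GENCODE M21 (GRCm38), which gave symbols, positions and exon lengths, and 5320 other features were kept under their own names.

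Counts were filtered with filterByExpr (minimum count 10, minimum total 15), scaled by TMM and fitted with glmQLFit and glmQLFTest in edgeR 4.0.16 (R 4.3.3), with diet as the only term. P-values were adjusted by Benjamini-Hochberg over all 18580 features tested. The SE is the log2 fold change divided by the root of the F statistic. For 1 gene in 3 mice per diet, the smallest two-sided p of an exact permutation test is 0.1, so none was run. Levels were divided by merged exon length, and neighbours were compared by an exact sign-flip permutation test. Ratios within a mouse used raw counts, and those to oligodendrocyte markers other than Mbp were added after the data were seen. Pattern likeness used log2 CPM with a prior count of 1. Coding sequences were translated and aligned with Biopython 1.88 (gap opening 11, extension 1), and exact shared stretches were searched from 12 bases up. Tables were handled in Python 3.11.15 (pandas 2.3.3) and figures made in matplotlib 3.10.9. The fit was tested on simulated data.

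The 9 genes, the gene lists and the tests were chosen with earlier results of these data known. The text names the 9 genes, every pathway gene past the threshold and the pathway gene with the most reads in each list, the 5 features with a gene symbol of no predicted model that were most like Rtn4 and Rtn4r, and the marker genes called, of which some are not reported here. Other genes of the pathway (Mag, Ngfr, Tnfrsf19, Lingo2, Lingo4, Rhoa, Rock1, Rock2 and Bace1) are given for their known roles, a choice made with their values in view. Alternatives were DESeq2 1.42.0, limma voom (limma 3.58.1), scaling by library size only, by upper-quartile factors or by relative log expression, no filter, a filter of 10 counts in each mouse, other gene lengths and leaving out each mouse. Promoter sequences are from RefSeq (GRCm38.p6), and Rtn4rl1 and Omg were not matched in that table. Behavioral measurements were not analysed here.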

Additional observations from a re-analysis of the deposited data

How the results depend on the processing

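The log2 fold changes of all 9 genes kept their sign in 13 of 13 alternatives and moved by less than the SD within a diet. Leaving out each mouse in turn gave -0.12 to -0.077 for Rtn4, 0.21 to 0.27 for Rtn4r, 0.12 to 0.18 for Rtn4rl1, 0.13 to 0.26 for Rtn4rl2, 0.15 to 0.19 for Lingo1, -0.18 to -0.092 for Omg, -0.13 to -0.024 for Rtn2 (lowest without PLDP mouse 17), 0.034 to 0.065 for Rtn1 and -0.020 to -0.00091 for Rtn3. In the same refits between 3 and 4 of the 9 genes were called higher and between 0 and 3 lower, with 0 lower without control mouse 5, 1 without control mouse 2 or PLDP mouse 26, and 3 without PLDP mouse 17, where Rtn2 was added to Rtn4 and Omg. The share of all features called in these refits moved too. It was 3.36% higher and 2.59% lower without control mouse 2, 3.77% and 2.72% without control mouse 5, 6.86% and 5.69% without PLDP mouse 17, and 3.91% and 3.33% if PLDP mouse 26 was left out, against 4.91% and 3.69% with all mice. Of the 9 genes, 2 (Rtn4r and Lingo1) passed after adjustment with no filter, with DESeq2 and without PLDP mouse 17, and none in the other alternatives. Over all features, 180 of 36099, 24 of 18580 and 182 of 18848 passed in these fits. The genes were picked from this contrast, so nothing is read from their passing. Among the pathway genes, 4 to 7 were called higher, with 7 in the fit without PLDP mouse 17. Dpysl2 passed after adjustment with no filter, with DESeq2 and without PLDP mouse 17 or 22, and Ncan without PLDP mouse 17. The number called lower, 1 in the reported fit, was 2 with no filter on low counts and with library size only, 0 with upper-quartile factors and with DESeq2, and 0 to 2 on leaving out a mouse (0 without control mouse 2 or PLDP mouse 17, 2 without PLDP mouse 22). The call of Ptprs was lost in 7 of 13 alternatives, that of Spast in 7 and that of Reep2 in 2, while Ncan, Lingo3 and Dpysl2 were called in all 13. Adjusted p over the alternatives ran from 0.00039 to 0.381 for Dpysl2, 0.0282 to 0.809 for Ncan, 0.240 to 0.729 for Lingo3, 0.493 to 0.829 for Reep2, 0.234 to 0.852 for Ptprs and 0.557 to 0.860 for Spast. The cause was not tested.

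Over all features, DESeq2 called 564 higher and 362 lower, against 913 and 685, and 24 after adjustment, against 6. With no filter on low counts 1314 were called higher and 1046 lower of 36099, and without control mouse 5 none passed the adjustment, while edgeR called 713 higher and 513 lower without adjustment (unadjusted p under 0.05). For the levels, the log2 ratio of Rtn3 over Rtn1 turned to -0.32 with the longest transcript and -0.16 with the longest coding sequence, and Rtn4rl2 over Rtn2 to -1.25 with the coding sequence, while Lingo1 over Omg grew to 0.56 and 0.78 and passed the test. With 5 mice the sign-flip test cannot give a p below 0.0625, so levels without a mouse carry no test.

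No paired analysis was possible because the mice of the diets share no replicate numbers. Depth limits the low genes, such as Ngfr at about 6 CPM, and gene counts cannot separate the forms of Rtn4.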
